A study of Mus musculus with 12 samples.

Results

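Cartilage proteoglycans and the proteins that link them into the matrix were followed through a non-viral gene transfer experiment in C3H/10T1/2, an embryonic mouse line with fibroblast morphology whose cells can become chondrocytes, osteoblasts or adipocytes. The 10 genes were Acan, Hapln1, Comp, Matn1, Matn2, Matn3, Matn4, Chad, Prg4 and Epyc, chosen from a list of non-collagen cartilage matrix genes, with earlier results of these data known, out of 47643 genes in the count tables. All 10 had 1 Ensembl identifier each. After the filter on low counts, 5 of the 10 could be tested (Acan, Hapln1, Matn2, Matn4 and Epyc). The other 5 (Comp, Matn1, Matn3, Chad and Prg4) were removed by that filter and are given by their counts.

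There were 4 groups of 3 libraries, each from cells transfected transiently with 0.5 µg plasmid per square cm. The medium was exchanged after 4 hours and RNA was taken at day 3. The reference group received pH_BMP2ADV, a plasmid for bone morphogenetic protein 2 (BMP2). The other groups received pH_BMP2ADV20a, pH_BMP2ADV148b or pH_BMP2ADV590, hybrid plasmids that by their names and the series title pair BMP2 with a miRNA. A BMP2 plasmid was therefore common to all groups, and no untransfected, empty-plasmid or miRNA-only group was analysed here. The labels also list the line under sarcoma, name no promoter for the plasmids and give no share of cells that took them up. Nothing in them states that replicates were separate cultures, so the p-values measure the spread between these libraries, which may be technical.

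Cartilage resists compression because aggrecan, a very large proteoglycan laden with chondroitin sulphate chains, is held on long strands of hyaluronan by link protein. Matrilins and COMP bridge aggrecan and the collagen fibrils, small leucine-rich proteins such as epiphycan and chondroadherin sit on fibrils and cell surfaces, and lubricin coats the joint surface. BMP2 drives mesenchymal cells towards cartilage and bone, and the transcription factor SOX9, with SOX5 and SOX6, is known to switch on the aggrecan and link protein genes in chondrocytes.

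The mature sequences of the miRNAs after which 2 of the plasmids are named are shown because the groups differ by them. They are mouse RefSeq entries on GRCm38, with the seed (bases 2 to 8) in capitals. The labels name no arm, so both arms are given.
mmu-miR-20a-5p: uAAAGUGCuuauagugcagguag
mmu-miR-20a-3p: aCUGCAUUacgagcacuuaaag
mmu-miR-148b-5p: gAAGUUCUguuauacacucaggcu
mmu-miR-148b-3p: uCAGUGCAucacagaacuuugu
The 4 seeds differ from one another. Their 7-base complements (GCACTTT for miR-20a-5p, AATGCAG for miR-20a-3p, AGAACTT for miR-148b-5p and TGCACTG for miR-148b-3p) were searched on the sense strand in the longest annotated 3' UTR of each of the 10 genes. None of the 10 held any of them, whereas 11.7%, 11.3%, 13.8% and 12.7% of 21028 genes with an annotated 3' UTR did. This says only that these letters are not in these UTRs, of 167 bases in Comp to 3503 bases in Hapln1. No site was searched for miR-590.

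Upstream windows of Acan and Epyc are shown because both had their highest levels with pH_BMP2ADV590, while these regions differ widely in base composition. Each is the 250 bases before the first RefSeq start on GRCm38.p6, 5′ to 3′ on the gene's strand, with matches to the SOX core letters ACAAT (or ATTGT on the other strand) in capitals.
Acan, chr7:79052976-79053225, plus strand: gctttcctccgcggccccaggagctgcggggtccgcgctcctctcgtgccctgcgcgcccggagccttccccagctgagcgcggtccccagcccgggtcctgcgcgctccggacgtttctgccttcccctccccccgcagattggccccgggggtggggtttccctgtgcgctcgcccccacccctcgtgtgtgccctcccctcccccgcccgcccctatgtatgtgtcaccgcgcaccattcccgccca
Epyc, chr10:97643818-97644067, plus strand: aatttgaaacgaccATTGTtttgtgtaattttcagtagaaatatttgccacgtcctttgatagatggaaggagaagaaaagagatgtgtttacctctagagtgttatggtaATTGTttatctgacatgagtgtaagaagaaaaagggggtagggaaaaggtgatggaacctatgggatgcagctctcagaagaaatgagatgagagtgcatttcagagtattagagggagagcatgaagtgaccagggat
The Acan window had a GC content of 74.4% and no match, and the Epyc window had 39.2% and 2 matches. RefSeq gives Epyc a second start, whose window (chr10:97646853-97647102) had 31.2% and 3 matches. The window of Hapln1 (chr13:89540386-89540635) had 54.4% and 1 match, and lay inside the first exon that GENCODE M21 gives the gene, so its letters are not shown. The SOX core stood in 27.7% of 32851 windows of the same length. The palindrome GGCGCC, a core of the GC-rich elements bound by BMP SMADs, stood in 9.59% of them and in none of those of the 7 genes that matched the table. A match of letters is no evidence of binding.

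The 12 libraries, made with a 3' end kit (QuantSeq), held 9236431 to 14727288 gene counts each. Levels are CPM, read counts scaled to library size with TMM factors. The kit counts 3' ends without regard to length, and each test compares a gene with itself between groups. In this bulk RNA, fewer cells of a type and less RNA per cell cannot be told apart. Library 2 of pH_BMP2ADV590 stood apart on the second principal component, at -23.4 against 22.6 and 9.63 for the others of its group, and the values of the members and named genes were also computed without it. For these genes 26 calls involved pH_BMP2ADV590, of which 24 held without that library and those of Has2 and Sox5 did not. All calls of the members, Acan and Hapln1, held. Most of the other genes were named because they were called or followed the members' pattern, so their share that held is no separate support. Library 3 of pH_BMP2ADV also stood apart from its group on the second component, at -9.53 against 8.45 and 12.4. Without it 565 genes were called for pH_BMP2ADV590 against pH_BMP2ADV, instead of 1093. The calls of Sox5, Cytl1, Vcan, Has2 and Mmp9 in that comparison were then lost, while those of Acan and Hapln1 held. For Bmp2 itself, reads from the genome and from the plasmid cannot be told apart. It stood at 0.733 to 1.77 CPM with pH_BMP2ADV, 2.99 to 4.20 with pH_BMP2ADV20a, 3.38 to 8.27 with pH_BMP2ADV148b and 4.52 to 5.82 with pH_BMP2ADV590. These levels rest on 24, 15 and 7 counts with pH_BMP2ADV and 32 to 78 per library with the hybrids. Whether they follow the amount of BMP2 made was not tested. Against pH_BMP2ADV its log2 fold change was 1.91 with pH_BMP2ADV590 (edgeR adjusted p = 0.00210), 2.00 with pH_BMP2ADV148b (0.0326) and 1.35 with pH_BMP2ADV20a (0.160). The part of Bmp2 in the results below was not tested.

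Acan and Hapln1, which encode the core of the aggrecan complex, rose 2.62-fold and 2.35-fold with pH_BMP2ADV590 against pH_BMP2ADV, and none of the other 3 tested members passed the test. Acan (ENSMUSG00000030607, chromosome 7, 79053483 to 79115099, plus strand, GRCm38) encodes aggrecan. It stood at 43.0, 29.0 and 25.1 CPM in the libraries of pH_BMP2ADV and at 34.6, 27.6 and 63.7 CPM in those of pH_BMP2ADV20a. It stood at 29.9, 36.9 and 58.0 CPM with pH_BMP2ADV148b and at 99.4, 92.0 and 64.9 CPM with pH_BMP2ADV590. Every pH_BMP2ADV590 library was above all 9 of the others, although its lowest library and the highest of pH_BMP2ADV20a nearly met. The means were 32.4 ± 9.37, 42.0 ± 19.1, 41.6 ± 14.7 and 85.4 ± 18.2 CPM (SD, n = 3 each). The log2 fold change of pH_BMP2ADV590 against pH_BMP2ADV was 1.39 (SE 0.245, 95% interval 0.89 to 1.90), or 2.62-fold, with an adjusted p of 0.000652 in edgeR's quasi-likelihood test with Benjamini-Hochberg adjustment over 13229 genes. Without library 2 of pH_BMP2ADV590 it was 1.34 (edgeR adjusted p = 0.000761).

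Hapln1 (ENSMUSG00000021613, chromosome 13, 89539796 to 89611652, plus strand) encodes link protein, which locks aggrecan onto hyaluronan. Its levels were 112, 96.0 and 67.4 CPM with pH_BMP2ADV and 92.8, 97.1 and 126 CPM with pH_BMP2ADV20a. They were 83.8, 101 and 121 CPM with pH_BMP2ADV148b and 228, 210 and 213 CPM with pH_BMP2ADV590. The pH_BMP2ADV590 libraries lay close together and far above the other 9, which overlapped freely among themselves. The group means were 91.9 ± 22.7, 105 ± 17.8, 102 ± 18.6 and 217 ± 9.85 CPM (SD, n = 3 each). The log2 fold change against pH_BMP2ADV was 1.23 (SE 0.142, 95% interval 0.94 to 1.53), or 2.35-fold (edgeR adjusted p = 7.96e-06), and 1.26 without library 2 of pH_BMP2ADV590 (2.28e-06). Gm8546, a pseudogene on the opposite strand within Hapln1, had 0 counts in all 12 libraries.

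**Figure D1:**
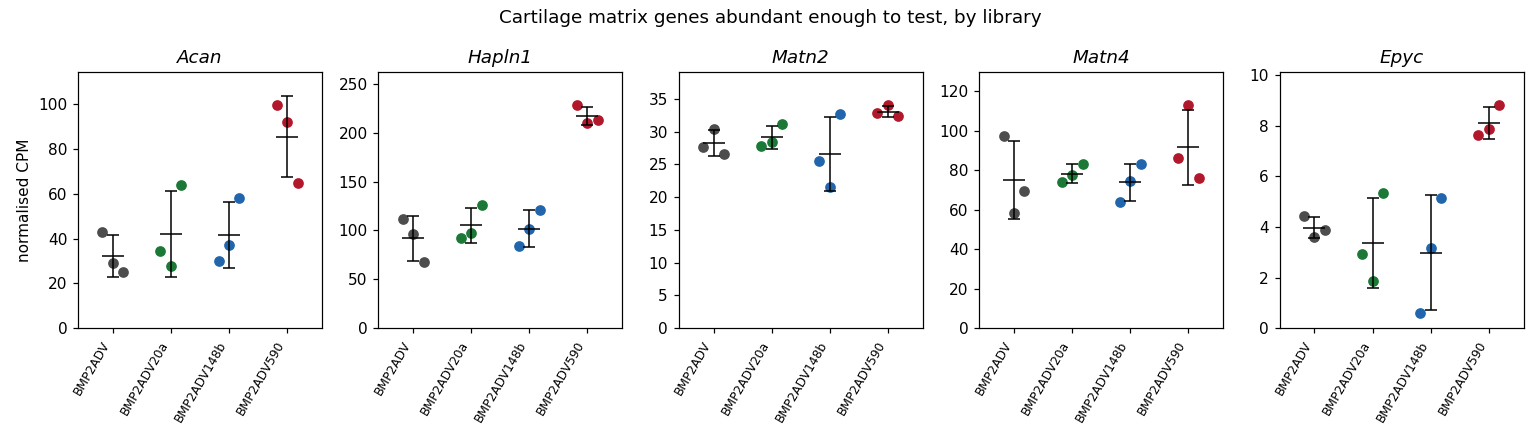
Normalised CPM (linear axis from 0) of the 5 genes abundant enough to test, by group, with 1 point per library and the mean ± SD as bars. For Acan and Hapln1 the 3 pH_BMP2ADV590 libraries lie above the other 9, from 64.9 and 210 CPM upwards, and for Matn4 the groups overlap.

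Both genes were also higher with pH_BMP2ADV590 than with either other hybrid plasmid. Against pH_BMP2ADV20a the log2 fold change of Hapln1 was 1.05 (SE 0.141, edgeR adjusted p = 0.000719) and that of Acan was 1.04 (SE 0.240, edgeR adjusted p = 0.0216). Against pH_BMP2ADV148b they were 1.09 (SE 0.142, edgeR adjusted p = 3.39e-05) and 1.04 (SE 0.243, edgeR adjusted p = 0.0117). The Hapln1 calls held with every library left out in turn, with adjusted p up to 0.0123 against pH_BMP2ADV20a and up to 0.00118 against pH_BMP2ADV148b. The Acan calls between hybrids did not. Against pH_BMP2ADV20a the adjusted p was 0.142 in DESeq2, 0.167 and 0.156 in edgeR without library 1 or 2 of pH_BMP2ADV20a, and 0.0793 without library 1 of pH_BMP2ADV590. Against pH_BMP2ADV148b it was 0.0935 in DESeq2, and 0.132 and 0.0860 in edgeR without library 1 or 2 of pH_BMP2ADV148b. Without library 2 of pH_BMP2ADV590 the Acan differences were 0.98 (0.0205) and 0.99 (0.0160), and those of Hapln1 1.07 (0.000100) and 1.11 (1.24e-05), in edgeR with adjusted p in brackets.

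The order of the group means was the same for Acan and Hapln1, with pH_BMP2ADV590 first, then pH_BMP2ADV20a, pH_BMP2ADV148b and pH_BMP2ADV, but the last 3 did not differ beyond their spread. With pH_BMP2ADV20a the log2 fold change against pH_BMP2ADV was 0.35 for Acan (95% interval -0.16 to 0.87, edgeR adjusted p = 0.674) and 0.19 for Hapln1 (-0.11 to 0.48, 0.702). With pH_BMP2ADV148b it was 0.35 for Acan (-0.17 to 0.87, 0.747) and 0.14 for Hapln1 (-0.16 to 0.44, 0.840). These intervals still allow an Acan level 1.82-fold or 1.83-fold higher, so a difference of that size cannot be told from none with these libraries. The direct difference between these 2 hybrids was -0.00 for Acan (-0.51 to 0.51) and -0.05 for Hapln1 (-0.34 to 0.25).

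Of the matrilins, adaptor proteins that bridge proteoglycans and collagen fibrils, Matn2 and Matn4 could be tested and neither passed the test in any comparison of all 12 libraries. Matn2 (ENSMUSG00000022324, chromosome 15, 34306677 to 34436273, plus strand) encodes a matrilin found well beyond cartilage. It varied least of the 5 over the 12 libraries, from 21.5 to 34.0 CPM. Its levels were 27.7, 30.4 and 26.6 CPM with pH_BMP2ADV, 27.8, 28.4 and 31.1 CPM with pH_BMP2ADV20a, 25.5, 21.5 and 32.7 CPM with pH_BMP2ADV148b and 32.8, 34.0 and 32.3 CPM with pH_BMP2ADV590. The pH_BMP2ADV590 libraries lay just above all of pH_BMP2ADV and pH_BMP2ADV20a and met the highest of pH_BMP2ADV148b. The log2 fold change of pH_BMP2ADV590 was 0.23 against pH_BMP2ADV (95% interval -0.05 to 0.50, edgeR adjusted p = 0.344), 0.18 against pH_BMP2ADV20a (-0.09 to 0.45, 0.576) and 0.31 against pH_BMP2ADV148b (0.04 to 0.59, 0.215). Without library 3 of pH_BMP2ADV148b the last passed, at 0.48 (0.0415), and without library 2 of that group it was 0.18 (0.611). The upper bound of the interval against pH_BMP2ADV is 1.41-fold, below the lower bound of 1.85-fold for Acan.

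Matn4 (ENSMUSG00000016995, chromosome 2, 164389393 to 164405160, minus strand), another broadly expressed matrilin, stood at 97.2, 58.4 and 69.8 CPM with pH_BMP2ADV and 73.9, 77.7 and 83.5 CPM with pH_BMP2ADV20a. It stood at 64.1, 74.5 and 83.2 CPM with pH_BMP2ADV148b and at 86.3, 113 and 76.2 CPM with pH_BMP2ADV590. All 4 groups overlapped, and the first library of pH_BMP2ADV was above 2 of the 3 pH_BMP2ADV590 libraries. The log2 fold change of pH_BMP2ADV590 was 0.29 against pH_BMP2ADV (95% interval -0.02 to 0.59, edgeR adjusted p = 0.271), 0.23 against pH_BMP2ADV20a (-0.07 to 0.54, 0.505) and 0.32 against pH_BMP2ADV148b (0.01 to 0.62, 0.272). Without library 1 of pH_BMP2ADV the first was 0.52 and passed (0.0267), and without library 2 of pH_BMP2ADV590 it was 0.11 (0.750). Rbpjl, which overlaps Matn4 on the opposite strand, had 0 to 4 counts per library.

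The remaining bridging proteins were nearly silent. Comp (ENSMUSG00000031849, chromosome 8, 70373558 to 70382066, plus strand) encodes cartilage oligomeric matrix protein, a thrombospondin that binds collagen fibrils. It had 10, 3 and 2 counts with pH_BMP2ADV, 0, 3 and 2 with pH_BMP2ADV20a, 13, 0 and 4 with pH_BMP2ADV148b and 8, 4 and 9 with pH_BMP2ADV590. In raw counts the pH_BMP2ADV590 libraries lay within the range of pH_BMP2ADV and of pH_BMP2ADV148b and above those of pH_BMP2ADV20a. On the CPM scale library 3 of pH_BMP2ADV590, at 0.901, lay above the highest of pH_BMP2ADV, at 0.739. The group sums were 15 counts with pH_BMP2ADV (exact 95% Poisson interval 8.40 to 24.7), 5 with pH_BMP2ADV20a (1.62 to 11.7), 17 with pH_BMP2ADV148b (9.90 to 27.2) and 21 with pH_BMP2ADV590 (13.0 to 32.1). Only the sums of pH_BMP2ADV20a and pH_BMP2ADV590 had intervals that did not meet. In an edgeR fit without the filter the log2 fold change between those groups was 2.09 and did not pass (adjusted p = 0.584). Matn3 (ENSMUSG00000020583, chromosome 12, 8947929 to 8972028, plus strand), a matrilin of growing cartilage, had 9, 6 and 1, then 13, 5 and 0, then 7, 3 and 5, and then 8, 13 and 7 counts in the groups in that order. Its group sums of 16, 18, 15 and 28 counts had intervals that overlapped (9.15 to 26.0, 10.7 to 28.4, 8.40 to 24.7 and 18.6 to 40.5), and no order can be read from them. Without the filter pH_BMP2ADV590 against pH_BMP2ADV stood at 0.82 (edgeR adjusted p = 0.750). The p-values of that fit are not comparable with those of the main fit, for the reason given in the last section. Matn1 (ENSMUSG00000040533, chromosome 4, 130944385 to 130955475, plus strand), the classical cartilage matrilin, had 1 count in all, in library 3 of pH_BMP2ADV148b, and the 0 of each other group has an exact interval of 0 to 3.69 counts. These intervals cover counting error only.

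Epyc (ENSMUSG00000019936, chromosome 10, 97644068 to 97682454, plus strand) encodes epiphycan, a small leucine-rich proteoglycan of growth plate cartilage. It was scarce but measurable, at 4.44, 3.61 and 3.87 CPM with pH_BMP2ADV and 2.94, 1.87 and 5.34 CPM with pH_BMP2ADV20a. It was at 0.614, 3.18 and 5.15 CPM with pH_BMP2ADV148b, where the lowest value rests on 6 counts, and at 7.62, 7.89 and 8.81 CPM with pH_BMP2ADV590. The 3 libraries of pH_BMP2ADV590 lay above the other 9 and close together, while those of pH_BMP2ADV148b spanned an 8.39-fold range. The log2 fold change of pH_BMP2ADV590 was 1.02 against pH_BMP2ADV (SE 0.402, 95% interval 0.19 to 1.85, edgeR adjusted p = 0.129) and 1.28 against pH_BMP2ADV20a (0.44 to 2.12, 0.113). Against pH_BMP2ADV148b it was 1.44 (0.57 to 2.31), with an edgeR adjusted p of 0.05003, just above the threshold of 0.05. The first of these was smaller than that of Acan and had a wider error (SE 0.402 against 0.245), and none of the 3 is called.

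The verdict on Epyc turned on the method and on single libraries. Against pH_BMP2ADV148b it passed in DESeq2 (adjusted p = 0.0332), limma-voom (0.0196), edgeR without a filter on low counts (0.000222) and edgeR with the replicate number as a block (0.0353), and without library 3 of pH_BMP2ADV148b (0.00923) or library 2 or 3 of pH_BMP2ADV20a (0.0470 and 0.0412). Against pH_BMP2ADV20a it passed in limma-voom (0.0368), without the filter (0.00170) and without library 3 of pH_BMP2ADV20a or library 1 of pH_BMP2ADV148b (0.0454 and 0.0312). Against pH_BMP2ADV it passed only with the libraries of the other hybrids out of the fit (0.0169), without library 1 of pH_BMP2ADV148b (0.0429) and without a filter on low counts (0.0143). The p-values without that filter are not comparable with the others, for the reason given in the last section. Without library 2 of pH_BMP2ADV590 the adjusted p was 0.158 against pH_BMP2ADV, 0.0980 against pH_BMP2ADV20a and 0.0572 against pH_BMP2ADV148b, at log2 fold changes of 1.04, 1.30 and 1.46. Gm10754, on the opposite strand, had 0 counts throughout.

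Chad (ENSMUSG00000039084, chromosome 11, 94565047 to 94569127, plus strand) encodes chondroadherin, a leucine-rich protein that binds collagen and chondrocytes. It had 0 counts in all 12 libraries, which allows up to 3 counts over a group at the one-sided limit used for zeros, or 0.0766 CPM with pH_BMP2ADV20a to 0.106 CPM with pH_BMP2ADV148b. Acsf2, which overlaps it on the opposite strand, had 3 to 13 counts per library. Prg4 (ENSMUSG00000006014, chromosome 1, 150449412 to 150466165, minus strand) encodes lubricin, the lubricant of the joint surface. It had 9, 1 and 1 counts with pH_BMP2ADV, 5, 0 and 2 with pH_BMP2ADV20a, 1, 2 and 0 with pH_BMP2ADV148b and 0, 5 and 5 with pH_BMP2ADV590. Most of the reference group's 11 counts came from 1 library, and the sums of 11, 7, 3 and 10 counts had overlapping Poisson intervals. Tpr, which overlaps Prg4 on the opposite strand, had 1469 to 2659 counts per library, and the sources used here do not give the strand setting of the counting.

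**Figure D2:**
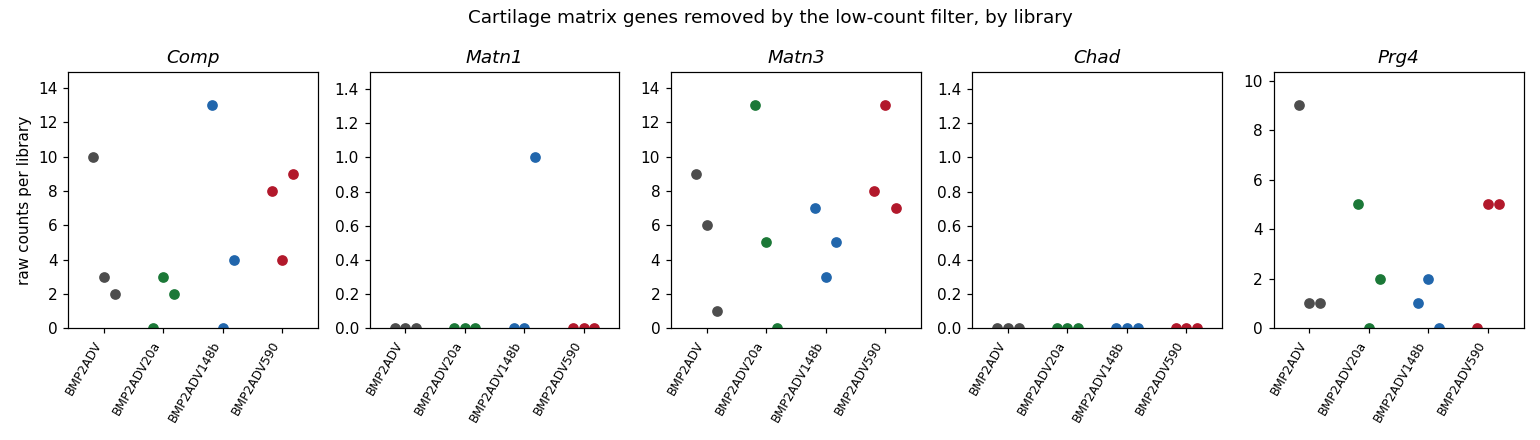
Raw counts per library (linear axes from 0, each with its own range) of the 5 genes removed by the filter on low counts, 1 point per library. Comp, Matn3 and Prg4 stay at or below 13 counts, Matn1 has 1 count in all and Chad has none, and in Comp, Matn3 and Prg4 all pairs of groups overlap but pH_BMP2ADV20a and pH_BMP2ADV590 in Comp.

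Read by comparison, members were called only where pH_BMP2ADV590 was one of the groups. Of the 5 tested, 2 were higher and 0 lower with pH_BMP2ADV590 than with pH_BMP2ADV, against 4.37% of all tested genes higher and 3.89% lower. The libraries of pH_BMP2ADV590 lay wholly above those of pH_BMP2ADV for 4 of the 5 (all but Matn4), against 12.5% of all tested genes. Against pH_BMP2ADV20a, 2 of 5 were called higher (1.29% of all tested genes) and 4 of 5 did not overlap (9.80%). Against pH_BMP2ADV148b, 2 of 5 were called higher (2.46%) and 3 of 5, Acan, Hapln1 and Epyc, did not overlap (10.4%).

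The median log2 fold changes of the 5 were 1.02, 1.04 and 1.04 in these 3 comparisons, where the medians of all tested genes were 0.00, 0.01 and 0.00. Since the same pH_BMP2ADV590 libraries enter all 3, the comparisons do not stand for separate evidence. All 5 members were above 0 in each, and the sizes fell into a high set of Acan, Hapln1 and Epyc at 1.02 to 1.44 and a low set of Matn2 and Matn4 at 0.18 to 0.32. The difference between these sets was not tested.

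With pH_BMP2ADV20a against pH_BMP2ADV, 0 of 5 were called, against 0.476% of all tested genes. With pH_BMP2ADV148b against pH_BMP2ADV it was 0 of 5 (0.249%), and between these 2 hybrids 0 of 5 (0.559%). In these 3 comparisons edgeR gave 0 members at an unadjusted p under 0.05 (9.87%, 8.43% and 7.79% of all tested genes). DESeq2 and limma-voom called 0 members. The medians were 0.06, -0.03 and -0.08. The 2 comparisons with pH_BMP2ADV share their reference libraries. Asked whether a gene differed anywhere among the 4 groups, edgeR called 2 of 5, Hapln1 (adjusted p = 4.69e-06) and Acan (0.00140), against 6.25% of all tested genes. Epyc missed at 0.0692, Matn2 at 0.436 and Matn4 at 0.450.

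**Figure D3:**
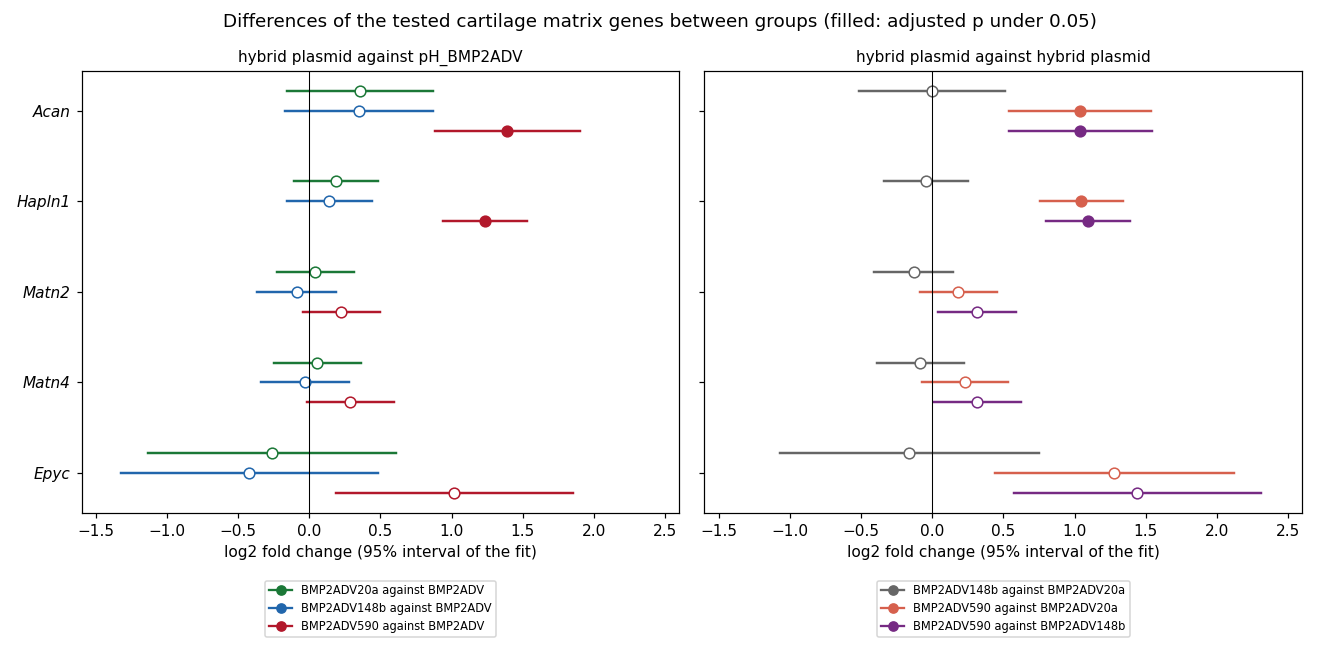
Log2 fold changes of the 5 tested genes with the 95% interval of the edgeR fit, hybrid plasmids against pH_BMP2ADV on the left and against each other on the right, filled where the adjusted p is under 0.05. The filled points are Acan and Hapln1 with pH_BMP2ADV590, between 1.04 and 1.39, and the intervals of Epyc are the widest.

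Within the groups too, Acan and Hapln1 moved together from library to library. Once each group's mean was taken away, their log2 CPM had a Pearson r of 0.823 over the 12 libraries, and each group's highest Acan library was also its highest for Hapln1. Epyc followed Acan less closely (r = 0.700), then Matn4 (0.636) and Matn2 (0.533), and Matn2 and Matn4 hardly followed each other (0.162). Points of 1 library share its depth, scaling and cell state, so these are descriptions. Before the group means were taken away the values between members were higher, at 0.929 for Acan and Hapln1, because the pH_BMP2ADV590 libraries sit apart from the rest. Such an r was not particular to this pair. With the group means removed, it was 0.812 for Hapln1 and Sox9 and 0.787 for Acan and Sox9. It was 0.896 for Epyc and Col2a1 and 0.950 for Sox9 and Col2a1.

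The genes most alike in pattern were sought by the Pearson r of their log2 CPM with the mean z-score of the 5 tested members over the 12 libraries, among genes with a mean of at least 10 CPM. They were Tsc22d1 (r = 0.972), Col27a1 (0.963), Plagl1 (0.963), Msi2 (0.957) and Sox5 (0.948). Tsc22d1 encodes a leucine zipper protein, Col27a1 a fibrillar collagen of cartilage, Plagl1 an imprinted zinc finger factor, Msi2 an RNA-binding protein and Sox5 a partner of SOX9. Col27a1 ran nearest to Acan, with r = 0.969 after removal of the group means. It stood at 381, 311 and 270 CPM with pH_BMP2ADV and at 768, 770 and 638 CPM with pH_BMP2ADV590, and library 3 was the highest for both genes in pH_BMP2ADV20a and pH_BMP2ADV148b. The profile they were chosen by is high in the pH_BMP2ADV590 libraries, so a test between groups would not be independent of that choice. None is given here, but their calls are among the 26 counted above. Sox5 is also on the list of collagens and SOX factors below, and its test is given there.

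**Figure D4:**
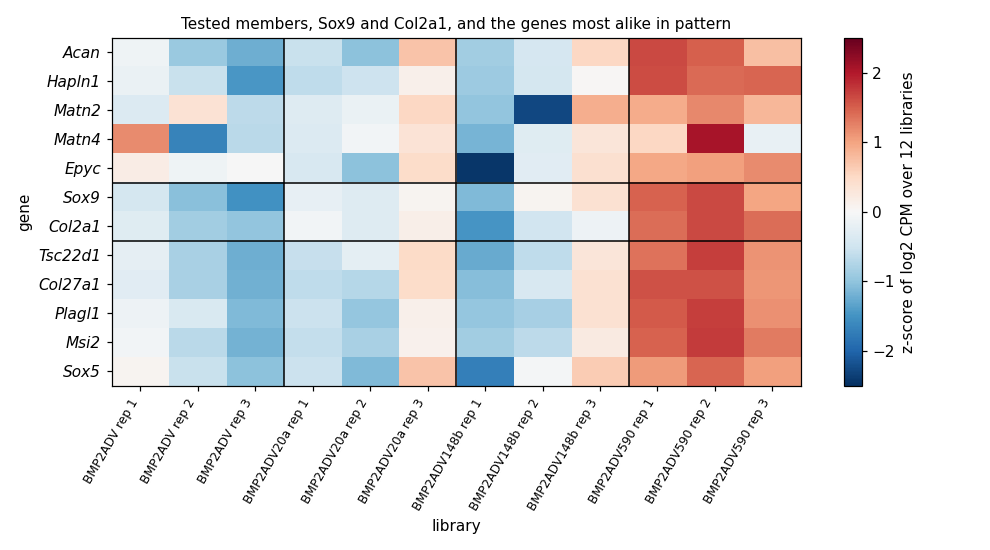
Z-scores of log2 CPM over the 12 libraries (columns, in order of group and replicate) for the 5 tested genes, Sox9 and Col2a1, and the 5 genes most alike in pattern. The 3 pH_BMP2ADV590 columns are red in most genes, while Matn2 and Matn4 break the pattern in single libraries.

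The collagens and SOX factors that build and drive the same matrix were taken as a list of 10, all of which were tested. With pH_BMP2ADV590 against pH_BMP2ADV, 9 of 10 rose and 0 fell, with a median log2 fold change of 0.81. Of all tested genes 4.37% were called higher and 3.89% lower in that comparison, which is the background for the lists below too. Single calls in short lists are not read as a result on the list. Col10a1, the collagen of hypertrophic cartilage, went from 220, 221 and 136 CPM to 501, 532 and 446 CPM (log2 fold change 1.35, SE 0.155, edgeR adjusted p = 7.32e-06). Sox9, the master regulator of chondrocytes, went from 1948, 1702 and 1530 CPM to 2998, 3129 and 2692 CPM (0.77, 2.87e-05). Col2a1, the main cartilage collagen, went from 1262, 1133 and 1106 CPM to 1757, 1845 and 1754 CPM (0.61, SE 0.0832, 4.26e-05). For all 3 the groups were clear of each other. The exception was Col9a3, at -0.06 (0.937). Sox5 rose by 0.81 (0.0297), but not without library 2 or 3 of either group (0.0596 to 0.149).

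The fold changes of Acan and Hapln1 in that comparison were thus near that of Col10a1 and above those of Sox9 and Col2a1. Those differences between genes were not tested. Against pH_BMP2ADV20a and pH_BMP2ADV148b, 6 of the 10 partners were higher with pH_BMP2ADV590 in each, or 3 against pH_BMP2ADV20a without its library 2. Of all tested genes 1.29% and 2.46% were called higher in these comparisons. With the other hybrids against pH_BMP2ADV, 0 of 10 passed (medians 0.18 and 0.11), and 0 did in DESeq2. At an unadjusted p under 0.05 in edgeR were 3 with pH_BMP2ADV20a (9.87% of all tested genes) and 1 with pH_BMP2ADV148b (8.43%).

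The enzymes and transporters that make chondroitin sulphate, the chains that load aggrecan, formed a list of 27 with 25 tested. With pH_BMP2ADV590 against pH_BMP2ADV 9 rose and 0 fell, with a median log2 fold change of 0.31. Papss2, which makes the active sulphate donor and is prominent in cartilage, stood at 271, 240 and 203 CPM with pH_BMP2ADV and 510, 613 and 505 CPM with pH_BMP2ADV590. Its log2 fold change was 1.19 (SE 0.111, edgeR adjusted p = 8.62e-07), and the groups did not overlap. Chst11, a chondroitin 4-O-sulphotransferase, went from 115, 113 and 97.4 CPM to 175, 199 and 186 CPM (0.78, 7.34e-05). Ugdh, which makes the UDP-glucuronate building block, went from 331, 344 and 324 CPM to 495, 437 and 467 CPM (0.49, 0.000152). Others that rose included the sulphate carrier gene Slc26a2 (0.66), the chain-starting enzyme gene Csgalnact1 (0.64), the sugar carrier gene Slc35d1 (0.57) and Papss1 (0.46).

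Genes of chain elongation, such as Chsy1 at 0.14 (edgeR adjusted p = 0.371), did not pass. Against pH_BMP2ADV148b 9 of 25 were higher with pH_BMP2ADV590 (2.46% of all tested genes) and against pH_BMP2ADV20a 5 of 25 (1.29%). The latter count was 9 in DESeq2, 2 and 3 without library 1 or 2 of pH_BMP2ADV20a and 8 without library 2 of pH_BMP2ADV590. With the other hybrids against pH_BMP2ADV, 0 of 25 passed in edgeR, while DESeq2 called 1 for pH_BMP2ADV20a. At an unadjusted p under 0.05 in edgeR were 6 with pH_BMP2ADV20a (9.87% of all tested genes) and 2 with pH_BMP2ADV148b (8.43%).

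Of the genes for hyaluronan, the strand that aggrecan and link protein sit on, 8 of 11 were tested, and 0 rose and 1 fell with pH_BMP2ADV590, with a median of -0.25. The one that fell was Has2, the main hyaluronan synthase of mesenchymal cells, from 22.2, 23.4 and 24.6 CPM to 17.1, 9.86 and 17.1 CPM (log2 fold change -0.67, edgeR adjusted p = 0.0307). The lowest value is that of library 2 of pH_BMP2ADV590, without which the change was -0.45 and did not pass (0.136). The call was also lost without any 1 library of pH_BMP2ADV (0.0527 to 0.109) and with the replicate number as a block (0.0502). The receptor gene Cd44 stood at -0.20 (0.157). With pH_BMP2ADV590, 6 of the 8 were at an unadjusted p under 0.05 in edgeR, in either direction (21.2% of all tested genes). With pH_BMP2ADV20a and pH_BMP2ADV148b against pH_BMP2ADV, 0 of 8 were called. There 4 and 1 of the 8 were under that unadjusted p (9.87% and 8.43% of all tested genes).

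Close relatives of the members gave a mixed picture. Of the other hyalectan and link protein genes, 3 of 6 were tested, and Vcan, which encodes the embryonic hyalectan versican, was higher with pH_BMP2ADV590 (231, 219 and 213 CPM against 284, 258 and 269 CPM). Its log2 fold change was only 0.29 (edgeR adjusted p = 0.0189). It was lost without library 2 or 3 of pH_BMP2ADV (0.0774 and 0.0931) or library 1 or 3 of pH_BMP2ADV590 (0.0837 and 0.0567) and in a fit of these groups alone (0.0526). Of the thrombospondins, the family of Comp, 3 of 4 were tested. Thbs1, a large adhesive protein of many cells, fell from 101, 113 and 146 CPM to 75.9, 58.6 and 66.8 CPM (-0.84, SE 0.125, edgeR adjusted p = 0.000119), without overlap. Thbs2 at -0.04 and Thbs3 at 0.07 did not pass.

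Of 12 other secreted cartilage proteins 6 were tested, of which 1 rose and 1 fell with pH_BMP2ADV590. Cytl1, a small cytokine-like protein of cartilage, went from 29.1, 21.2 and 17.0 CPM to 35.5, 37.7 and 32.8 CPM (log2 fold change 0.65, edgeR adjusted p = 0.00924). It did not pass without library 2 or 3 of pH_BMP2ADV (0.0531 and 0.0754). Mgp, matrix Gla protein, an inhibitor of calcification, fell from 442, 454 and 519 CPM to 370, 358 and 367 CPM (-0.37, 0.00423), and the groups did not overlap. Chadl, a relative of Chad, stood at 0.90 with an SE of 0.468 and did not pass (0.278).

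Proteinases that cut aggrecan, and their inhibitors, split both ways, with 3 of 13 tested higher and 3 lower. Timp3, the tissue inhibitor of aggrecanases, rose from 4079, 3853 and 3893 CPM to 5981, 6104 and 5620 CPM (log2 fold change 0.58, SE 0.0713, edgeR adjusted p = 1.41e-05). Adamts5, the main aggrecanase of mouse cartilage, fell from 340, 359 and 342 CPM to 250, 162 and 240 CPM (-0.68, SE 0.124, 0.000997). Adamts1, a relative that also cuts proteoglycans, fell from 249, 285 and 251 CPM to 196, 184 and 191 CPM (-0.46, SE 0.0833, 0.000923). In all 3 the libraries of the groups were clear of each other. Adamts4, the other well known aggrecanase, stood at 0.45 and did not pass (0.229), while Adamts15 (1.24, 0.00902) and Mmp14 (0.27, 0.0246) passed. Without library 3 of pH_BMP2ADV, 1 of the 3 rises passed, that of Timp3.

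Mmp9, a gelatinase, rested on few counts, with 29, 9 and 12 with pH_BMP2ADV, 1, 1 and 0 with pH_BMP2ADV20a and 2, 5 and 2 with pH_BMP2ADV590. It was called lower in both, and was the only related gene called for pH_BMP2ADV20a against pH_BMP2ADV. That call did not hold without library 1 or 3 of pH_BMP2ADV or any 1 library of pH_BMP2ADV20a (edgeR adjusted p of 0.0523 to 0.154). With pH_BMP2ADV590 the call held in 2 of the 5 alternatives that gave an adjusted p, and DESeq2 gave none. It did not hold in limma-voom (0.0654), with the block (0.0646) or in edgeR without a filter on low counts (0.0558). The same was true without any 1 library of pH_BMP2ADV (0.0521 to 0.185). Nor did it hold without library 1 or 3 of pH_BMP2ADV590 (0.154 and 0.140), library 2 of pH_BMP2ADV20a (0.0507) or library 2 or 3 of pH_BMP2ADV148b (0.0521 and 0.0506). No related gene was called with pH_BMP2ADV148b against pH_BMP2ADV.

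**Figure D5:**
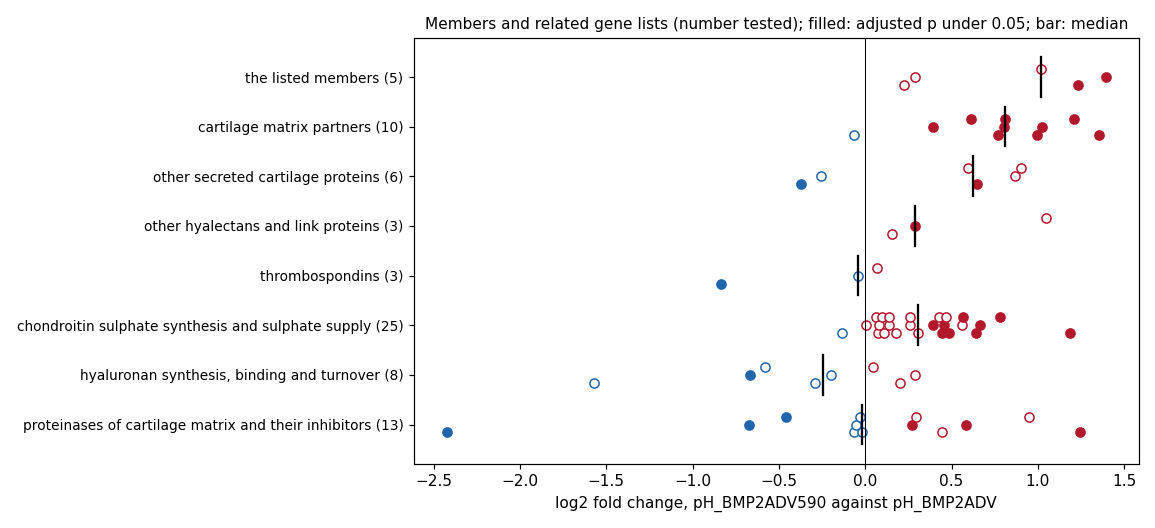
Log2 fold changes of pH_BMP2ADV590 against pH_BMP2ADV for the tested members and the related lists, 1 point per gene, filled where the adjusted p is under 0.05, with a bar at each median. The median is 1.02 for the members, 0.81 for their collagen and SOX partners and 0.31 for chondroitin sulphate synthesis, and lies below 0 for the hyaluronan genes. The members' median is the value of Epyc alone, which is not called, and the difference from the partners was not tested.

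Markers of cell types set the frame for these levels. The summed CPM of 12 chondrocyte markers, 4 of them members, was 3463 to 4178 with pH_BMP2ADV, 4199 to 4644 with pH_BMP2ADV20a, 3482 to 4590 with pH_BMP2ADV148b and 5608 to 6459 with pH_BMP2ADV590. None of the 12 was at 0 in all libraries, although Matn1 came to 1 count. The sum of 6 hypertrophic chondrocyte markers was 364 to 481, 475 to 607, 415 to 534 and 823 to 941 CPM in that order. Both sums were highest with pH_BMP2ADV590, as were Acan and Hapln1. They are carried by abundant genes such as Sox9, Col2a1 and Col10a1. By group means 10 of the 12 (not Col9a3 or Matn1) and 5 of the 6 (not Spp1) were highest there. The 10 include Matn3 (group sums of 16, 18, 15 and 28 counts) and the 5 include Ihh (11, 11, 6 and 19). No order can be read from such low counts. The share of all tested genes highest with pH_BMP2ADV590 was not counted, so the 10 and 5 have no background beside them. More cells and more RNA per cell cannot be told apart.

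Lists for other tissues were given the same sums. The 8 osteoblast markers summed to 45.6 to 50.4 CPM with pH_BMP2ADV and 48.8 to 54.6 CPM with pH_BMP2ADV590, and 0 of 5 tested passed. That sum is carried by Runx2, with means of 41.7 and 42.3 CPM, and hides the scarcer markers. The median log2 fold change of the 5 tested was 0.60. With pH_BMP2ADV20a the sum was 56.6 to 63.5 CPM, with 0 of 5 called. At an unadjusted p under 0.05 in edgeR against pH_BMP2ADV were 3 of the 5, and 9.87% of all tested genes. For the next lists the sums are those with pH_BMP2ADV and then with pH_BMP2ADV590. The 5 tendon markers summed to 209 to 232 and 182 to 207 CPM, with 1 of 4 tested lower. The 5 synovial lining markers, with Prg4 among them, summed to 8.27 to 14.3 and 8.78 to 10.2 CPM, with 0 of 1 called. The 6 adipocyte markers summed to 33.2 to 35.0 and 21.1 to 47.4 CPM, with Plin1 at 0, and the 5 neural markers to 103 to 110 and 79.7 to 88.6 CPM, with 1 of 4 lower. Myod1 and Ckm of skeletal muscle, Adgre1 of macrophages, Cdh5 of endothelium and Cldn4 and Krt8 of epithelium had 0 counts in all 12 libraries. They were the only markers of these lists at 0 throughout. Other markers of the same lists, such as Actn3, Csf1r, Tek and Cdh1, had counts in all 12 libraries. The sums of those 4 lists stayed at or below 5.60, 3.61, 12.2 and 3.18 CPM. No list of fibroblast markers was set, so the labelled fibroblast shape was not checked in this way.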

How the data were processed

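The deposited values are raw read counts per gene, 1 table per library, for 12 QuantSeq 3' mRNA FWD libraries made from 100 ng RNA with 16 PCR cycles, per the labels' protocols. The authors used FastQC 0.11.5, STAR 2.5.2a, HTSeq 0.6.0 and GRCm38, per the submitters' processing notes. The sources used here give no annotation release, counting mode or strand setting. Lines that hold no gene were 52.2% to 54.4% of each table, mostly reads with more than 1 alignment, and were left out of library sizes. Amplified reads carry no molecular tags, so Poisson intervals and the limit of 3 counts cover counting error only. Replicates differed by more than sampling noise (chi-square per degree of freedom 6.04 to 26.8), so none was counted as a duplicate.

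Symbols came from GENCODE M21 for 47224 of 47643 genes. One edgeR 4.0.16 fit (R 4.3.3, TMM, filterByExpr, quasi-likelihood F-test, common biological coefficient of variation 0.117) over all 12 libraries tested 13229 genes. P-values were adjusted by Benjamini-Hochberg over all of them and called under 0.05. Correlations used log2 CPM with a prior count of 2. Alternatives were DESeq2 1.42.0, limma-voom (limma 3.58.1), RLE size factors, no filter on low counts, library sizes without Gm42418 and mitochondrial transcripts, only the groups compared, a replicate block and each library left out. On simulated data for pH_BMP2ADV590 against pH_BMP2ADV (13109 genes), 31 of 67 genes changed 1.5-fold, 57 of 67 changed 2-fold and 65 of 66 changed 4-fold were recovered, and 8 of 12909 unchanged genes were called.

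The members and lists were chosen with earlier results of these data known. Always named were the 10 members. From each related list up to 3 genes called against pH_BMP2ADV were named by smallest p, with at most 6 a list, and the 5 genes most alike in pattern. Other genes of the lists named in the text were chosen after their values were seen. Fgfbp2, on 1 list, was not matched. Sequences are from RefSeq on GRCm38.p6. Of the 10 members 7 matched a start there, and all 10 had a 3' UTR in GENCODE M21.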

Additional observations from a re-analysis of the deposited data

How the results depend on the processing

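The calls of Acan and Hapln1 with pH_BMP2ADV590 against pH_BMP2ADV held in all 7 alternatives and with each of the 12 libraries left out (adjusted p up to 0.00935 and 0.000131). The members called in pH_BMP2ADV590 against pH_BMP2ADV20a were 2, but 1 in DESeq2 and 3 in limma-voom and without a filter on low counts, with 1 to 3 over the leave-one-out fits. Against pH_BMP2ADV148b they were 2, but 3 in limma-voom, with the block and without the filter, with 1 to 4 over the leave-one-out fits. No member was called in any alternative in the 3 comparisons without pH_BMP2ADV590, where small differences changed sign. That of Acan between pH_BMP2ADV148b and pH_BMP2ADV20a was -0.00, and 0.013 with the replicate block and 0.059 in limma-voom. With 1 library left out, log2 fold changes with pH_BMP2ADV20a against pH_BMP2ADV ran from -0.068 to 0.626 (Acan), -0.007 to 0.102 (Matn2), -0.094 to 0.295 (Matn4) and -0.725 to 0.039 (Epyc). With pH_BMP2ADV148b against pH_BMP2ADV they ran from -0.032 to 0.315 (Hapln1), -0.263 to 0.043 (Matn2), -0.181 to 0.208 (Matn4) and -1.074 to 0.065 (Epyc). Between those hybrids they ran from -0.324 to 0.421 (Acan), -0.192 to 0.103 (Hapln1), -0.180 to 0.006 (Matn4) and -0.820 to 0.320 (Epyc). The cause was not tested. Replicate numbers did not pair the libraries. Deviations from group means of same-numbered libraries correlated at -0.113 to 0.071, with 0 of 18 pairs over 0.1. With the block, genes called were 36 instead of 63 for pH_BMP2ADV20a against pH_BMP2ADV, 14 instead of 33 for pH_BMP2ADV148b, and 172 instead of 287 for pH_BMP2ADV590 against pH_BMP2ADV20a. Without a filter on low counts those 3 counts were 184, 126 and 519, and 137 instead of 74 between pH_BMP2ADV148b and pH_BMP2ADV20a. That fit of 24197 genes estimated infinite prior degrees of freedom, against 15.5, so its p-values are not comparable. DESeq2 called 107 and 85 genes for pH_BMP2ADV20a and pH_BMP2ADV148b against pH_BMP2ADV, and a fit of only those groups 145 for pH_BMP2ADV20a. With 1 library left out, genes called ran from 18 to 108, 3 to 60 and 565 to 1115 (of 1093) for the 3 hybrids against pH_BMP2ADV in that order, 22 to 93 between pH_BMP2ADV148b and pH_BMP2ADV20a, 64 to 489 for pH_BMP2ADV590 against pH_BMP2ADV20a and 241 to 656 (of 586) against pH_BMP2ADV148b. The filter on low counts left Comp, Matn1, Matn3 and Prg4 out of the test, Chad had no counts, and the error of Epyc is wide.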
